A study of Mus musculus with 4 samples.

Results

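The proteasome subunit genes are the rows of the deposited mouse gene table whose symbol begins with *Psma*, *Psmb*, *Psmc* or *Psmd* followed by a number. By this rule 39 of 23995 gene symbols were members. The level of each was measured by RNA-seq in 4 libraries of sorted blood monocytes, and 38 of the 39 reached 1 FPKM (fragments assigned to a gene, scaled by transcript length and library size) in at least 1 library. *Psmb11*, the beta subunit of thymic epithelium, stayed at or below 0.00966 FPKM in all 4 libraries and is not counted further. *Psma8*, the testis form of an alpha subunit, reached 1 FPKM only in the RBP-J-deficient Ly6Clo library, so 37 members reached it in all 4.

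The libraries came from Ly6Clo and Ly6Chi monocytes of control mice (Rbpj+/+ Lyz2cre/cre, titled WT in the deposited records with the genotype label Lyz2-Cre) and of RBP-J-deficient mice (RBP-Jfl/fl Lyz2-Cre), with 1 library for each genotype and subset. RBP-J is the DNA-binding protein through which Notch receptors act on transcription. Both genotypes carried Cre at the *Lyz2* locus, which is active in myeloid cells, so the controls shared the Cre allele and differed in the loxP-flanked *Rbpj*. The mice were matched for sex and age, at 7 to 12 weeks, and how many animals each library holds is not given in the sources used here. The study asked how loss of RBP-J alters the subsets. With 1 library for each group, no difference below has a replicate check, no test was made, and an interval cannot be given because read depth is unknown.

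*Rbpj* itself was lower in RBP-J-deficient monocytes, with a log2 ratio of (FPKM + 1) over control of -1.44 in Ly6Clo and -2.00 in Ly6Chi monocytes. The summed FPKM of 3 Ly6Chi markers (*Ly6c2*, *Ccr2*, *F13a1*) was 70.7 in control versus 562.7 in RBP-J-deficient Ly6Clo monocytes, against 3205 and 2501 in the Ly6Chi libraries. *Ccr2* made up most of both Ly6Clo sums, with 59.2 FPKM in control and 473.7 in RBP-J-deficient monocytes. *Ly6c2* had 10.9 and 78.3 there, and *F13a1* 0.61 and 10.7. The paper reports higher CCR2 in RBP-J-deficient Ly6Clo monocytes by qPCR and flow cytometry too. The summed FPKM of 5 Ly6Clo markers (*Nr4a1*, *Itgax*, *Spn*, *Ace*, *Treml4*) was 1840 in control versus 644.2 in RBP-J-deficient Ly6Clo monocytes, and 410.1 and 548.3 in the Ly6Chi libraries. *Treml4* had 1018 FPKM in control and 513.0 in RBP-J-deficient Ly6Clo monocytes, and *Nr4a1* 618.2 and 65.6. By flow cytometry and qPCR the paper instead found Nr4a1 alike between genotypes in Ly6Clo monocytes. In the Ly6Chi libraries *Treml4* (154.2 and 316.5) and *Spn* (12.2 and 23.1) were higher with RBP-J deficiency, and *Nr4a1*, *Itgax* and *Ace* were lower. All 4 monocyte markers were above 1 FPKM in each library. The sum of 4 B cell markers was 26.1 in control Ly6Clo and 1.81 in RBP-J-deficient Ly6Clo monocytes, with none of the 4 at 0. Summed T cell, NK cell and neutrophil markers stayed at or below 5.52 FPKM in every library, platelet markers lay between 115.4 and 324.7, and erythroid markers between 17.8 and 63.7. The summed FPKM of all genes was 717376 in control versus 885648 in RBP-J-deficient Ly6Clo monocytes, and 711533 and 763721 in the Ly6Chi libraries.

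The proteasome degrades proteins tagged with ubiquitin. Its 20S core is a stack of alpha and beta rings whose inner chamber holds the catalytic beta subunits. Its 19S cap has a base that holds the ATPases, which unfold the substrate, and a lid that removes ubiquitin. In immune cells the catalytic subunits *Psmb5*, *Psmb6* and *Psmb7* can be replaced during assembly by the interferon-inducible *Psmb8*, *Psmb9* and *Psmb10*, which gives the immunoproteasome that makes peptides for MHC class I. NFE2L1 and NFE2L2 are known to raise transcription of many subunit genes together, through antioxidant response elements.

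The promoters of 5 catalytic subunit genes are shown, because they belong to the exchange between immunoproteasome and constitutive subunits described further on. The sequences are from RefSeq on GRCm38.p6 and run from 250 bases before to 50 bases after an annotated transcription start, on the strand of the gene. Motifs were searched on both strands, and capitals mark matches to the antioxidant response element core TGACNNNGC in *Psmb5* and *Psmb6*. Capitals mark TTCNNNGAA, a STAT site, in *Psmb8*. In *Psmb9* they mark CCAAT, the box bound by NF-Y, and TGGGAA, the RBP-J motif, each read on the opposite strand. In *Psmb10* they mark TGGGAA on the opposite strand. In *Psmb8* the opposite strand of the first 6 capital letters also holds the RBP-J motif, so the STAT and RBP-J matches overlap.
Psmb5 (chr14:54617946-54618245, minus strand): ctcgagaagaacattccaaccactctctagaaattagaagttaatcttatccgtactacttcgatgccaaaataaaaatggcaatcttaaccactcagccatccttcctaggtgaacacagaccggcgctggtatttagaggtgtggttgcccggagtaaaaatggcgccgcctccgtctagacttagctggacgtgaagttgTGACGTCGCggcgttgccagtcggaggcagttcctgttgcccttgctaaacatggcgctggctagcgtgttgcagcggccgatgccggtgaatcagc
Psmb6 (chr11:70525107-70525406, plus strand): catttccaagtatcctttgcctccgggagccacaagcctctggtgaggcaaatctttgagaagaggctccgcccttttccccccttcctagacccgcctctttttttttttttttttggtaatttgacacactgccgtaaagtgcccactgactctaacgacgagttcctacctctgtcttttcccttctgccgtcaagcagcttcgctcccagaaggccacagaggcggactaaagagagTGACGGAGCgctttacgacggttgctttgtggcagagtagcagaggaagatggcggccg
Psmb8 (chr17:34197945-34198244, plus strand): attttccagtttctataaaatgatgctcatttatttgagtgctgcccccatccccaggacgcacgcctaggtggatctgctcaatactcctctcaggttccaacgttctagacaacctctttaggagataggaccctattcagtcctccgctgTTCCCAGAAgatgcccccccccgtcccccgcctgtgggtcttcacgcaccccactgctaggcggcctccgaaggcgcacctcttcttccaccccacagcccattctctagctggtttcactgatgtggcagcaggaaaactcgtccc
Psmb9 (chr17:34187281-34187580, minus strand): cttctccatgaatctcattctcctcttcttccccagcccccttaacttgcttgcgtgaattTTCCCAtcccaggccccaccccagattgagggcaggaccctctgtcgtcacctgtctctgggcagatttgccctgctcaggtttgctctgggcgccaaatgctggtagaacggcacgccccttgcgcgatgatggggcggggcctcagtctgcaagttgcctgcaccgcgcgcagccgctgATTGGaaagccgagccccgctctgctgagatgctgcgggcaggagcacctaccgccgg
Psmb10 (chr8:105938343-105938642, minus strand): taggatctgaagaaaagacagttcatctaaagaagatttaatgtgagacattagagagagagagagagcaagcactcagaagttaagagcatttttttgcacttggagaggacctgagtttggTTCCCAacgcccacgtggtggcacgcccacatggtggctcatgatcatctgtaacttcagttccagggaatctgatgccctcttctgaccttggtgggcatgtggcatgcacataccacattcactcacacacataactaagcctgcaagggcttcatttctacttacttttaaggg

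Promoters were found for 32 members, in 34 windows, and 7 members (*Psma8*, *Psmb1*, *Psmb2*, *Psmb7*, *Psmc3*, *Psmd3* and *Psmd7*) had none in the table. The TGACNNNGC core was present in 5 of the 34 windows (14.7%), those of *Psmb5*, *Psmb6*, *Psmc6*, *Psmd9* and *Psmd12*, and in 12.4% of all 32851 promoter windows of this length. CCAAT was present in 13 member windows (38.2%, against 37.4% of all windows) and TGGGAA in 9 (26.5%, against 25.6%). The interferon-stimulated response element core, which is GAAA repeated after a spacer of NN, was present in 3 windows (8.82%, against 3.44%), those of *Psmb3*, *Psmd4* and *Psmd9*. TTCNNNGAA was present in 2, *Psmb8* and *Psmd2* (5.88%, against 8.30%). The member shares for 4 of the 5 motifs lay within a few percentage points of those over all promoters, and the 3 windows with the interferon-stimulated core did not include *Psmb8*, *Psmb9* or *Psmb10*. A match of letters is a description and not a binding site. The windows of *Psmb9* and *Tap1*, the peptide transporter gene that lies head to head with it, share 275 of their 300 bases, and their starts lie 226 bases apart.

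Proteasome genes were among the abundant transcripts in every library. The median member (38 genes) had an FPKM of 150.4 in control versus 225.3 in RBP-J-deficient Ly6Clo monocytes, and of 152.5 in control versus 175.9 in RBP-J-deficient Ly6Chi monocytes. These medians lay between the percentiles 92.8 and 93.7 of the 10240 genes that reached 1 FPKM in at least 1 library, ranked by their level in the same library. The members made up 1.02% of the summed FPKM in control Ly6Clo, 1.24% in RBP-J-deficient Ly6Clo, 1.04% in control Ly6Chi and 1.13% in RBP-J-deficient Ly6Chi monocytes. The RBP-J-deficient Ly6Clo library was highest by both measures and the controls were alike. In bulk RNA, fewer cells of a type and less RNA per cell cannot be told apart. The SD of log2(FPKM + 1) over the 38 members was 1.66, 1.82, 1.74 and 1.82 in control Ly6Clo, RBP-J-deficient Ly6Clo, control Ly6Chi and RBP-J-deficient Ly6Chi monocytes.

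**Figure D1:**
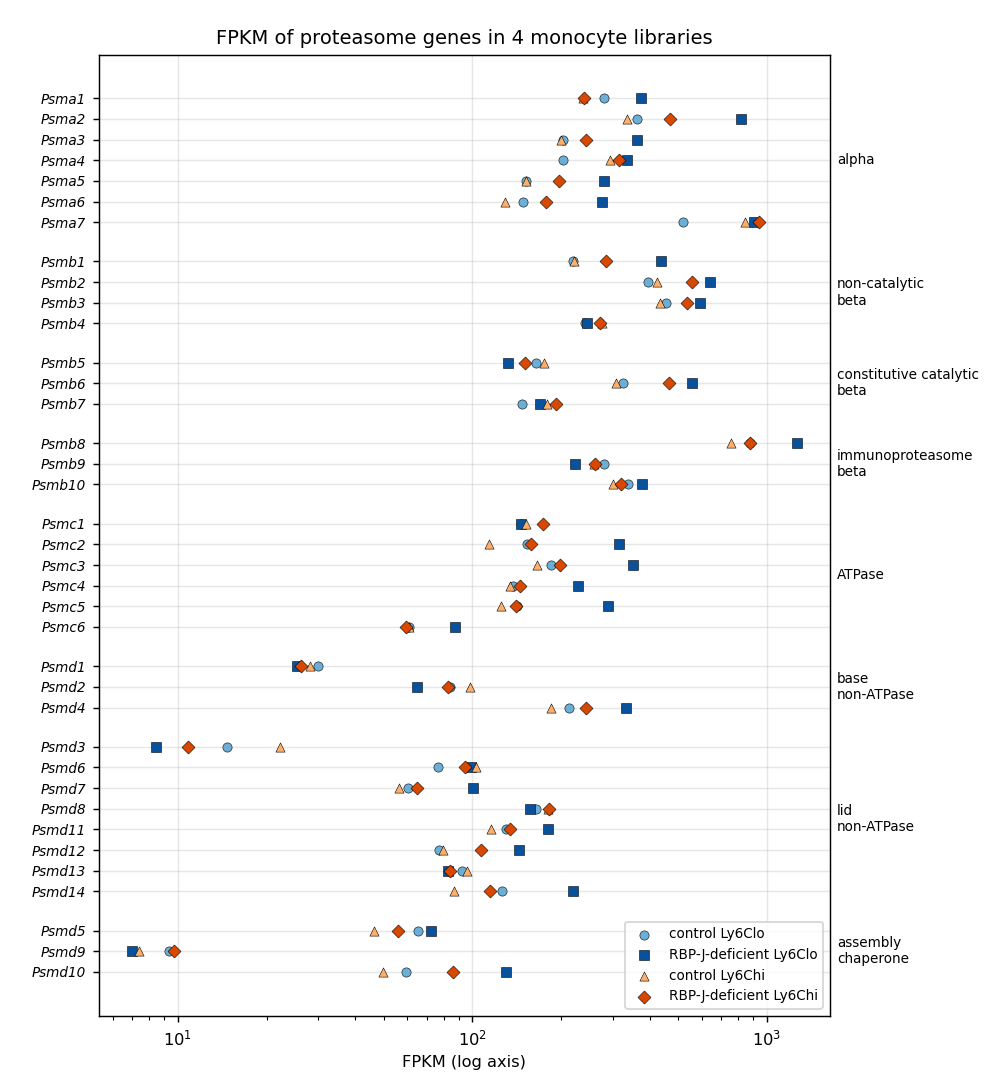
FPKM (log axis) of 37 proteasome genes, grouped by their place in the complex; each marker is 1 library, and there are no replicates. *Psma8*, which was below 1 FPKM in 3 of the 4 libraries, and *Psmb11* are left out. The RBP-J-deficient Ly6Clo library (dark squares) was the highest of the 4 for most alpha and ATPase genes, and *Psmd3* and *Psmd9* were the least abundant genes.

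Loss of RBP-J was accompanied by higher FPKM of most proteasome genes in Ly6Clo monocytes. Of 38 members, 29 (76.3%) had a log2 ratio of (FPKM + 1), with RBP-J-deficient divided by control, above 0. Ratios above 0 were held by 51.3% of all genes that reached 1 FPKM and by 68.9% of genes averaging at least 50 FPKM. By a fold of at least 1.5, 19 members were higher and 1, *Psmd3*, was lower. One of the 19 was *Psma8*, which counts as expressed only through the library in which it was high, and without it 18 of 37 were higher, with a median log2 ratio of 0.53. Over all 10240 genes that reached 1 FPKM in at least 1 library, 23.0% were higher and 22.0% lower by this measure. The median log2 ratio was 0.58 for the members and 0.02 for all genes. Abundant genes as a whole also leaned upward. Of the 1951 genes averaging at least 50 FPKM, 39.3% were higher and 13.7% lower, with a median of 0.39. Thus 19 of 38 members stood beside a share of 39.3% among these abundant genes, as well as beside 23.0% overall.

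The scale of the values mattered for the count. Rescaling each library to the same sum (TPM) moved every gene by -0.30 on the log2 scale before the pseudocount, and left 8 members higher and 5 lower (*Psmb5*, *Psmb9*, *Psmd2*, *Psmd3* and *Psmd9*), with a median of 0.28, where all genes had 13.7% higher and 32.1% lower and a median of -0.22. On this scale 21.6% of genes averaging at least 50 FPKM were higher and 20.7% lower, so 8 of 38 members was close to their share. Once the dependence of the ratio on GC content was subtracted (the GC trend), 17 members were higher and 0 lower, with a median of 0.42. Of the 9722 genes with a GC content 18.4% were higher and 22.7% lower. Of the 1951 genes averaging at least 50 FPKM, 662 were higher and 280 lower, with a median of 0.30. When the trend with transcript length was subtracted as well, 11 members were higher and 0 lower, beside 17.6% and 20.3% of the 9722 genes. Of the 1951 abundant genes 484 were then higher and 297 lower. The median of the members, 0.13, equalled that of genes averaging at least 50 FPKM, also 0.13. The longest transcripts of the members had a median length of 1895 bases, against 3152 for expressed genes. The part of GC content and length in the difference was not tested further. Among the 38 members, 9 share at least 10% of their 31-base words with transcripts of genes elsewhere in the genome, from 67.8% for *Psmb5* and 66.9% for *Psmb3* to 15.4% for *Psmb6*, so their FPKM is less certain. The others are *Psma3*, *Psma4*, *Psma5*, *Psmc1*, *Psmd2* and *Psmd11*. No member met the fold thresholds of the study's methods (at least 5.7 or at most 0.2), which 0.273% and 0.674% of all genes met in Ly6Clo monocytes.

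In what follows, the values of each subset are given with the control library first and the RBP-J-deficient library second. All 7 alpha genes of the outer rings were higher in RBP-J-deficient Ly6Clo monocytes, 6 of them by at least 1.5-fold, with a median log2 ratio of 0.84, although *Psma1* (0.42) and *Psma4* (0.72) became -0.39 and -0.08 when the trends with GC content and length were both subtracted. *Psma2* had the highest ratio of all members, with 361.0 FPKM in control versus 815.3 in RBP-J-deficient Ly6Clo monocytes, against 335.4 and 468.6 in the Ly6Chi libraries. Its log2 ratio was 1.17 in Ly6Clo and 0.48 in Ly6Chi monocytes. *Psma7*, the most abundant alpha gene, had 520.5 FPKM in control Ly6Clo and 905.1 in RBP-J-deficient Ly6Clo monocytes. In Ly6Chi monocytes it had 844.3 and 938.2, so the control Ly6Clo library was low and the other libraries were similar. *Psma6*, the least abundant, had 148.7 and 274.3 FPKM in control and RBP-J-deficient Ly6Clo and 129.3 and 178.3 in Ly6Chi monocytes. *Psma3*, *Psma5* and *Psma6* had log2 ratios between 0.84 and 0.88 in Ly6Clo monocytes. *Psma8* had 0.63 and 2.63 FPKM in control and RBP-J-deficient Ly6Clo monocytes and at most 0.18 in the Ly6Chi libraries, and its ratio of 1.16 rests on these low values.

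Among the non-catalytic beta genes, which close the inner rings, *Psmb1* and *Psmb2* were higher by at least 1.5-fold in RBP-J-deficient Ly6Clo monocytes. Their log2 ratios were 0.98 and 0.70. *Psmb3* had the highest mean level of the 4, with 452.8 FPKM in control versus 594.5 in RBP-J-deficient Ly6Clo and 434.5 and 535.1 in Ly6Chi monocytes, a ratio of 0.39 in Ly6Clo. *Psmb4* had the lowest mean level and was nearly level across the libraries, with 241.7 and 244.8 FPKM in Ly6Clo and 275.9 and 271.6 in Ly6Chi monocytes. *Psmb4* was thus alike in the genotypes while *Psmb1*, of the same ring, had 219.5 and 435.3 FPKM in control and RBP-J-deficient Ly6Clo monocytes.

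The catalytic genes diverged from one another. *Psmb6*, the constitutive caspase-like subunit, had 324.7 FPKM in control versus 556.5 in RBP-J-deficient Ly6Clo monocytes, and 307.9 and 466.4 in Ly6Chi monocytes. It was higher in the RBP-J-deficient library of both subsets, with log2 ratios of 0.78 and 0.60, which were 0.47 and 0.50 as TPM and 0.23 and 0.37 with GC content and length subtracted, all below 1.5-fold. *Psmb5*, the constitutive chymotrypsin-like subunit, had 164.2 and 131.6 FPKM in Ly6Clo and 175.6 and 150.5 in Ly6Chi monocytes, with ratios of -0.32 and -0.22. Its Ly6Clo ratio became 0.09 once the GC trend was subtracted. *Psmb7*, the constitutive trypsin-like subunit, had 147.6 and 169.2 FPKM in Ly6Clo and 179.0 and 191.9 in Ly6Chi monocytes, with ratios of 0.20 and 0.10 that turned negative on the TPM scale and with the GC trend subtracted.

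*Psmb8*, the interferon-inducible counterpart of *Psmb5*, was the most abundant of the catalytic genes, with 876.0 FPKM in control versus 1262 in RBP-J-deficient Ly6Clo and 757.8 and 876.4 in Ly6Chi monocytes. Its log2 ratios were 0.53 and 0.21, below the 1.5-fold line in both subsets, and in Ly6Clo monocytes it passed that line with the GC trend subtracted (0.67) and with GC content and length subtracted (0.62). *Psmb9*, the counterpart of *Psmb6*, had 279.6 and 223.2 FPKM in Ly6Clo and 259.3 and 260.7 in Ly6Chi monocytes. Its ratio in Ly6Clo monocytes was -0.32 (-0.63 as TPM, which is past 1.5-fold, -0.07 with the GC trend subtracted and 0.09 with GC and length subtracted), and 0.01 in Ly6Chi monocytes. *Psmb10*, the counterpart of *Psmb7*, had 336.6 and 376.7 FPKM in Ly6Clo and 300.6 and 320.6 in Ly6Chi monocytes. Its ratios of 0.16 and 0.09 turned negative on the TPM scale. They were 0.56 and 0.28 with the GC trend subtracted, below 1.5-fold, and 0.17 and 0.11 with GC content and length subtracted. As FPKM, no immunoproteasome gene passed 1.5-fold in either genotype comparison. The 4 genes *Psmb8* (chromosome 17, 34197721 to 34201454, plus strand), *Psmb9* (chromosome 17, 34181987 to 34187764, minus strand) and *Tap1* and *Tap2* lie in the MHC region, and their levels did not move as a unit.

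A ratio of 2 genes within a library does not depend on the scaling between libraries. *Psmb8* exceeded *Psmb5* by 5.34-fold in control versus 9.59-fold in RBP-J-deficient Ly6Clo monocytes, and by 4.31-fold and 5.82-fold in Ly6Chi monocytes. The ratio was highest in the RBP-J-deficient Ly6Clo library. *Psmb9* over *Psmb6* was 0.861 in control versus 0.401 in RBP-J-deficient Ly6Clo monocytes, and 0.842 and 0.559 in Ly6Chi monocytes, so it moved the opposite way in both subsets. *Psmb10* over *Psmb7* was 2.28 and 2.23 in Ly6Clo and 1.68 and 1.67 in Ly6Chi monocytes, a difference between subsets and almost none between genotypes. With the genotypes compared on the log2 scale of (FPKM + 1), the *Psmb8* pair changed by 0.84 in Ly6Clo and 0.43 in Ly6Chi monocytes, the *Psmb9* pair by -1.10 and -0.59, and the *Psmb10* pair by -0.03 and -0.01. With the GC trend subtracted these became 0.58 and 0.30 for *Psmb8*, -0.91 in Ly6Clo for *Psmb9*, and 0.81 and 0.36 for *Psmb10*. With GC content and length subtracted they were 1.17 and 0.53 for *Psmb8*, -0.14 and -0.17 for *Psmb9*, and 0.26 and 0.11 for *Psmb10*, so little of the difference in the *Psmb9* pair was left. The GC content of the longest transcript was 56.5% for *Psmb10* and 40.8% for *Psmb7*. The 3 immunoproteasome genes summed to 2.34 times the 3 constitutive genes in control and 2.17 times in RBP-J-deficient Ly6Clo monocytes, and to 1.99 and 1.8 times in Ly6Chi monocytes. In each subset the summed ratio was slightly lower for RBP-J-deficient monocytes. *Psmb5* and *Psmb6* are among the members with copies elsewhere in the genome, so their ratios are uncertain.

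**Figure D2:**
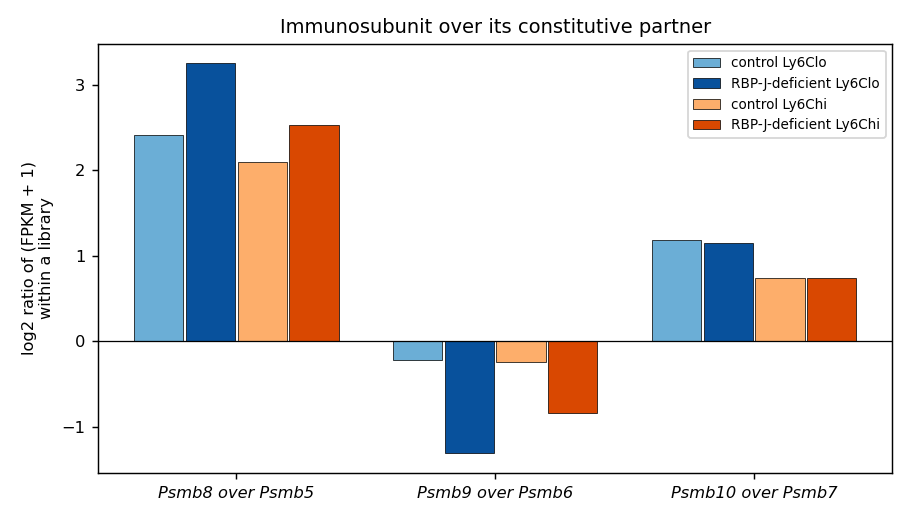
Log2 ratio of (FPKM + 1) of each immunoproteasome subunit gene over the constitutive subunit gene it replaces, within each of the 4 libraries (1 bar a library, no replicates). *Psmb8* over *Psmb5* stands highest and *Psmb9* over *Psmb6* lowest in the RBP-J-deficient Ly6Clo library, while *Psmb10* over *Psmb7* differs between subsets and little between genotypes.

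Of the 6 ATPase genes, the motor of the base, 4 were higher by at least 1.5-fold in RBP-J-deficient Ly6Clo monocytes, with a median ratio of 0.83 over all 6. *Psmc2* had 152.9 FPKM in control versus 314.7 in RBP-J-deficient Ly6Clo monocytes, against 113.4 and 157.8 in Ly6Chi monocytes, with ratios of 1.04 and 0.47. *Psmc5* had 142.0 and 287.8 in Ly6Clo and 125.3 and 140.4 in Ly6Chi monocytes, with ratios of 1.01 and 0.16. The single high library was RBP-J-deficient Ly6Clo for both genes. *Psmc3*, the most abundant ATPase gene, followed the same order, with 184.4 and 351.6 FPKM in Ly6Clo and 165.9 and 198.1 in Ly6Chi monocytes. *Psmc1* had 146.7 and 145.8 FPKM in Ly6Clo monocytes and did not share it. *Psmc6*, the least abundant, had 61.0 and 87.4 in Ly6Clo and 60.7 and 59.3 in Ly6Chi monocytes. Its Ly6Clo ratio of 0.51 became -0.02 with the GC trend subtracted, and its transcript had the lowest GC content of the members, 37.0%.

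The 3 non-ATPase genes of the base differed in direction. *Psmd4* encodes a ubiquitin receptor and had 213.3 FPKM in control versus 333.0 in RBP-J-deficient Ly6Clo monocytes, and 185.3 and 243.5 in Ly6Chi monocytes, with ratios of 0.64 and 0.39. The large scaffold genes *Psmd1* and *Psmd2* had ratios of -0.23 and -0.36 in Ly6Clo and -0.09 and -0.24 in Ly6Chi monocytes. *Psmd1* was the least abundant base gene, with 29.8 and 25.3 FPKM in Ly6Clo and 28.0 and 26.2 in Ly6Chi monocytes. *Psmd2* had 83.7 and 64.8 in Ly6Clo and 98.1 and 82.8 in Ly6Chi monocytes, and shares 45.3% of its words with genes elsewhere.

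In the lid, 3 of 8 genes were higher and 1 was lower in Ly6Clo monocytes. *Psmd14*, the deubiquitinase that removes the ubiquitin chain, had 126.0 FPKM in control versus 219.9 in RBP-J-deficient Ly6Clo monocytes, and 86.5 and 115.1 in Ly6Chi monocytes, with ratios of 0.80 and 0.41. *Psmd7*, its partner in a dimer, and *Psmd12* had Ly6Clo ratios of 0.73 and 0.89. *Psmd3*, a scaffold of the lid, went the other way in both subsets, with 14.7 and 8.45 FPKM in Ly6Clo and 22.2 and 10.8 in Ly6Chi monocytes. Its ratios of -0.73 and -0.98 were the lowest of the members in both comparisons, and both RBP-J-deficient libraries lay below both controls. In Ly6Clo monocytes it was -0.40 with the GC trend subtracted and -0.24 with GC content and length subtracted, short of 1.5-fold. The lowest members in Ly6Clo monocytes were then *Psmd1* (-0.45) and *Psmb5* (-0.55). In Ly6Chi monocytes *Psmd3* was -0.84 and -0.75 with these subtractions, past 1.5-fold and still the lowest member. *Psmd3* was the least abundant lid gene, and the most abundant, *Psmd8*, was nearly level, with 164.3 and 156.4 FPKM in Ly6Clo and 180.3 and 181.9 in Ly6Chi monocytes. *Psmd6*, *Psmd11* and *Psmd13* had Ly6Clo ratios of 0.37, 0.47 and -0.16.

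*Psmd5*, *Psmd9* and *Psmd10* carry subunit symbols but encode chaperones that assemble the base and leave the finished complex. *Psmd10* (gankyrin) had 59.5 FPKM in control versus 130.4 in RBP-J-deficient Ly6Clo monocytes, and 49.7 and 85.8 in Ly6Chi monocytes. It had the highest ratio of all members in Ly6Chi monocytes (0.78) and the third highest in Ly6Clo monocytes (1.12). *Psmd9* had 9.29 and 6.98 FPKM in Ly6Clo and 7.36 and 9.73 in Ly6Chi monocytes, ratios of -0.37 and 0.36. *Psmd5* had 65.2 and 72.2 in Ly6Clo and 46.5 and 55.9 in Ly6Chi monocytes.

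The genotype comparison in Ly6Chi monocytes gave smaller ratios as FPKM, while with GC content and length subtracted the medians of the subsets were close, at 0.13 in Ly6Clo and 0.12 in Ly6Chi monocytes. As FPKM the median log2 ratio was 0.19 for the members (0.09 as TPM) and 0.00 for all genes, and it was 0.16 for genes averaging at least 50 FPKM. Of 38 members, 30 (78.9%) were above 0, beside 50.4% of all genes and 67.1% of genes averaging at least 50 FPKM. By at least 1.5-fold, 2 members were higher (*Psmd10* and *Psmb6*) and 1 was lower (*Psmd3*), where 10.9% of all genes were higher and 14.3% lower. At 2 of 38, members past 1.5-fold upward were no more frequent than genes overall. The smallest ratios after *Psmd3* were -0.24 for *Psmd2* and -0.22 for *Psmb5*. The fold thresholds of the study's methods were met by no member, and by 0.156% of all genes upward and 0.156% downward.

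The genotype comparisons in Ly6Clo and Ly6Chi monocytes share no library. Whether the Ly6Clo and Ly6Chi libraries of a genotype came from the same mice is not given in the sources used here. Agreement between the subsets is therefore not a replicate check. As FPKM, 26 members were higher with RBP-J deficiency in both subsets and 5 were lower in both. How many of all genes did so in both was not counted. Ratios above 0 were held by 51.3% of all genes in Ly6Clo and 50.4% in Ly6Chi monocytes. Among genes averaging at least 50 FPKM these shares were 68.9% and 67.1%. The ratio in Ly6Clo exceeded that in Ly6Chi monocytes for 30 of 38 members, with a median difference of 0.33 on the log2 scale. Over all genes it did so for 53.7%, with a median difference of 0.06, and over genes averaging at least 50 FPKM for 64.8%, with 0.22. As TPM it did so for 24 members, with a median difference of 0.13, and with GC content and length subtracted for 23, with 0.12. The class medians of the ratio in Ly6Clo and Ly6Chi monocytes were 0.84 and 0.28 for alpha genes, 0.55 and 0.33 for non-catalytic beta, 0.20 and 0.10 for constitutive catalytic, 0.16 and 0.09 for immunoproteasome, 0.83 and 0.17 for ATPase, -0.23 and -0.09 for base non-ATPase, 0.42 and 0.11 for lid, and 0.15 and 0.36 for chaperone genes. On the TPM scale the Ly6Clo medians of the constitutive catalytic, immunoproteasome and chaperone genes were -0.11, -0.14 and -0.16, the other classes kept their sign, and alpha and ATPase genes had the highest, at 0.53 each. The Ly6Clo median of the chaperone genes was -0.17 with the GC trend subtracted, and that of the constitutive catalytic genes was -0.09 with GC content and length subtracted. With both subtracted, the Ly6Clo medians of alpha and non-catalytic beta genes were 0.33 and 0.05, and with the GC trend alone those of immunoproteasome and lid genes were 0.56 and 0.12.

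**Figure D3:**
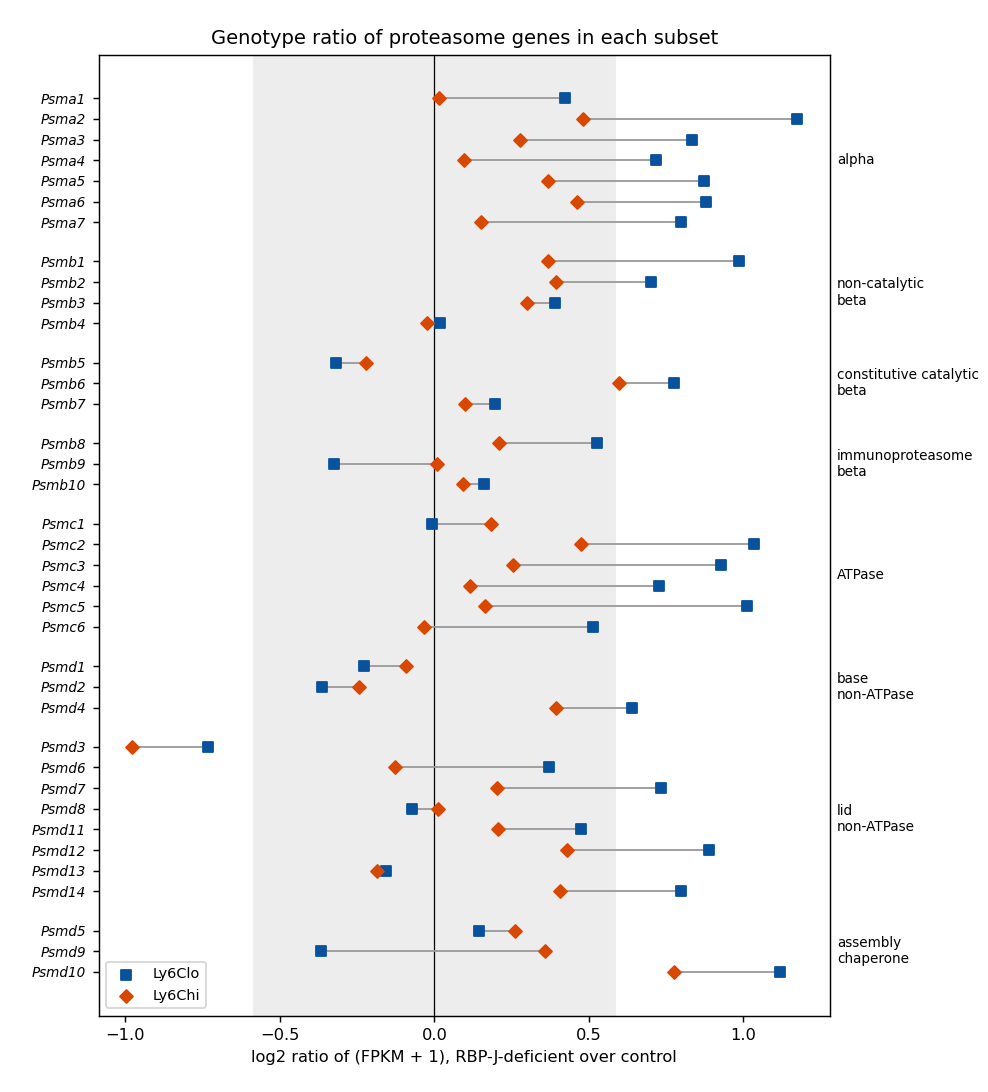
Log2 ratio of (FPKM + 1), with RBP-J-deficient divided by control, for 37 proteasome genes in Ly6Clo (squares) and Ly6Chi monocytes (diamonds), with 1 library a group; the grey band spans less than 1.5-fold in either direction. Most squares lie to the right of their diamonds on this FPKM scale, and *Psmd3* stands apart on the left in both subsets.

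Members differed in GC content, and the genotype ratio was lower at a higher GC content. Across the 38 members Spearman's rho between the Ly6Clo ratio and the GC content of the longest transcript was -0.39, and it was -0.37 across 6086 genes averaging at least 5 FPKM. In Ly6Chi monocytes the values were -0.32 and -0.29. These are correlations across genes, which share libraries and are not independent replicates. The members with a GC content below their median of 49.6% had a median Ly6Clo ratio of 0.80, with 11 of 19 higher, and those at or above it had 0.39, with 8 higher and 1 lower. Member ratios above 0.58 occurred on both sides of the median GC content. Over all 10240 expressed genes, of any GC content, 23.0% were higher and 22.0% lower by 1.5-fold. These shares were not counted within each range of GC content, and the part of GC content in the difference was not tested.

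**Figure D4:**
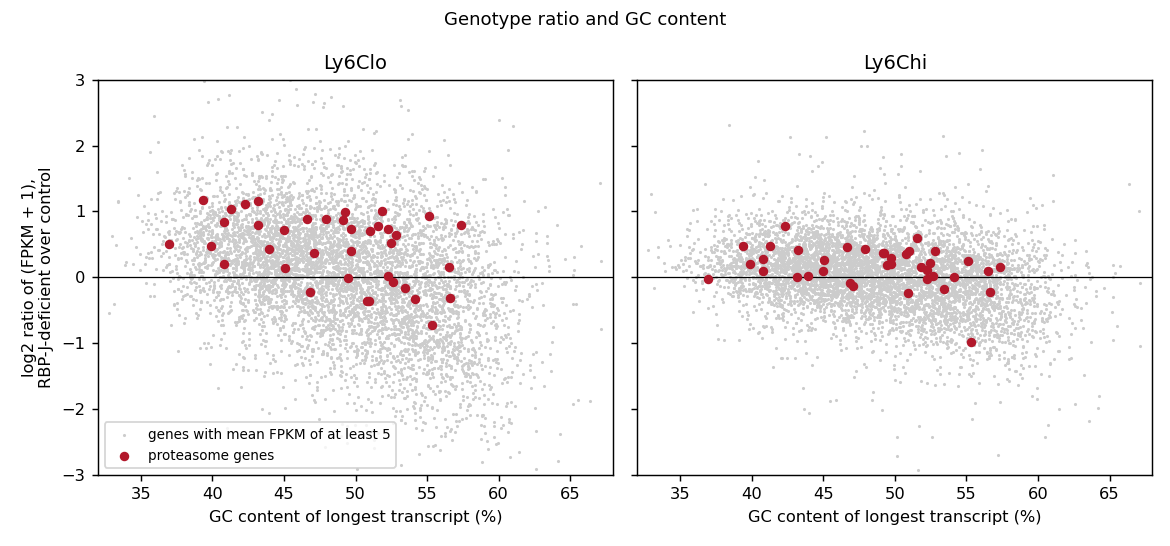
Log2 ratio of (FPKM + 1), with RBP-J-deficient divided by control, against the GC content of the longest transcript, for 38 proteasome genes (red) and 6086 genes averaging at least 5 FPKM (grey), in each subset; 20 genes in Ly6Clo and 15 in Ly6Chi monocytes lie beyond the vertical axis. The grey cloud slopes down with GC content, and the red points in Ly6Clo monocytes lie mostly in its upper part.

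Between the subsets of control mice the proteasome genes stood close to equal. The median log2 ratio, Ly6Chi over Ly6Clo, was -0.07 over the 38 members and 0.00 over all genes. Only *Psma7* (0.70) was higher by 1.5-fold and 0 members were lower, where 16.2% and 13.7% of all genes were. *Psmd3* (0.57) and *Psma4* (0.53) followed at the upper end, and *Psmd14* (-0.54), *Psmd5* (-0.48) and *Psma8* (-0.47) stood at the lower end. *Psma4* had 203.5 FPKM in control Ly6Clo, 335.6 in RBP-J-deficient Ly6Clo, 293.9 in control Ly6Chi and 314.3 in RBP-J-deficient Ly6Chi monocytes, so control Ly6Clo was its low library.

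In RBP-J-deficient mice the same subset comparison lay further below 0. The median was -0.39, with 0 members higher and 12 lower by 1.5-fold in Ly6Chi monocytes, where 21.3% of all genes were higher and 20.7% lower. Without *Psma8*, which counts as expressed only through the RBP-J-deficient Ly6Clo library, 11 of 37 were lower and the median was -0.36. Of the 1951 genes averaging at least 50 FPKM, 288 were higher and 503 lower, with a median of -0.18. On the TPM scale, which moved every gene by 0.21, 1 member was higher and 5 lower, with a median of -0.18. Beside these stood 28.8% and 14.9% of all genes and their median of 0.16. Of the 1951 abundant genes 413 were higher and 315 lower on that scale, with a median of 0.02. With the GC trend subtracted, 0 were higher and 9 lower, with a median of -0.26, beside 20.8% and 17.9% of genes with a GC content. *Psmc5* (-1.03) and *Psmc2* (-0.99) had the lowest ratios after the low-level *Psma8* (-1.62), and *Psmd9* (0.43), *Psmd2* (0.35) and *Psmd3* (0.32) the highest. This comparison shares the RBP-J-deficient Ly6Clo library with the genotype comparison in Ly6Clo monocytes, so they are not independent.

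**Figure D5:**
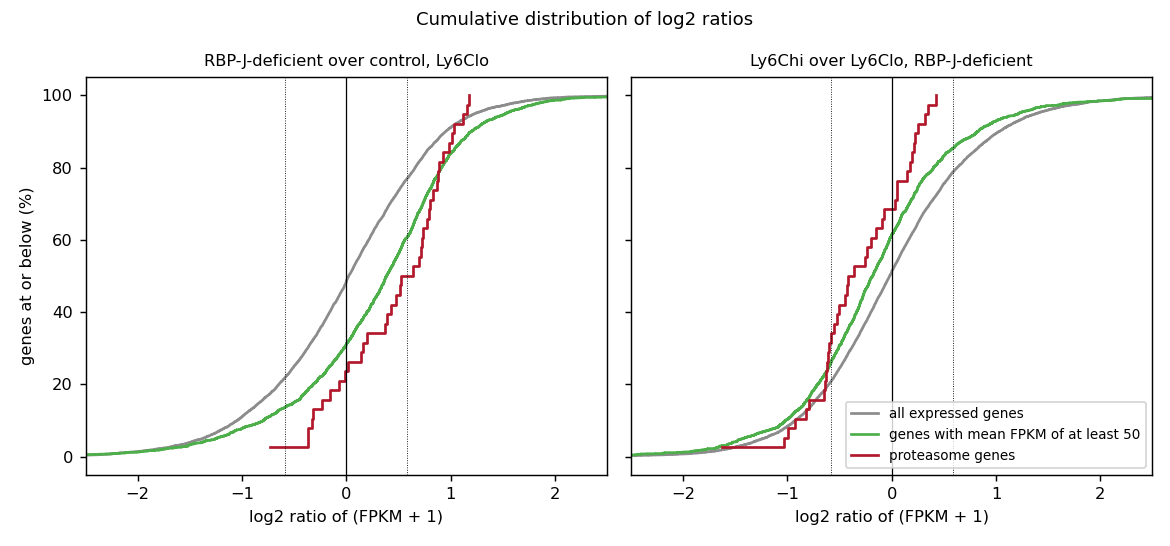
Cumulative share of genes at or below each log2 ratio of (FPKM + 1), for 38 proteasome genes (red), genes averaging at least 50 FPKM (green) and all 10240 expressed genes (grey); dotted lines mark 1.5-fold. The proteasome curve lies to the right of both others over most of its range in the Ly6Clo genotype comparison, and to the left of both in the upper part of the subset comparison of RBP-J-deficient mice.

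The RBP-J-deficient Ly6Clo library was the highest of the 4 for 25 of 38 members, and control Ly6Chi the lowest for 19. As a share of the summed FPKM, these libraries were the highest for 20 and the lowest for 16 members. These ranks were not counted over all genes, and the RBP-J-deficient Ly6Clo library had the largest summed FPKM (885648). *Psma8*, which counts as expressed only through that library, is among both the 25 and the 20. The summed Ly6Chi markers were also higher in the RBP-J-deficient than in the control Ly6Clo library (562.7 against 70.7). The Ly6Chi marker sums in the control and RBP-J-deficient Ly6Chi libraries were 3205 and 2501. The part of the cells' make-up in the proteasome levels was not tested beyond these values.

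Genes that act with the proteasome were mixed. Of 32 genes on the list of activators, assembly factors, associated factors, transcriptional regulators and peptide-loading genes, 7 were higher and 6 lower by 1.5-fold in RBP-J-deficient Ly6Clo monocytes, and 2 were higher and 4 lower in Ly6Chi monocytes. These counts were near the shares over all genes, 23.0% and 22.0% in Ly6Clo and 10.9% and 14.3% in Ly6Chi monocytes. As TPM, 4 of the 32 were higher and 10 lower in Ly6Clo monocytes, beside 13.7% and 32.1% of all genes. With the GC trend subtracted 8 were higher and 9 lower, beside 18.4% and 22.7% of genes with a GC content. The ratios of single genes below are as FPKM unless another scale is named. *Psme1* and *Psme2*, whose products form the interferon-inducible PA28 activator, had Ly6Clo ratios of 0.63 and 1.09. *Psme2* had 662.2 FPKM in control versus 1412 in RBP-J-deficient Ly6Clo monocytes, and 627.0 and 857.6 in Ly6Chi monocytes. *Psme4*, the nuclear activator PA200, had ratios of 0.84 in Ly6Clo and 0.70 in Ly6Chi monocytes. With the GC trend subtracted its ratios were 0.49 and 0.55, below 1.5-fold. *Psme3* (-0.48) and the inhibitor gene *Psmf1* (0.01) did not reach 1.5-fold in Ly6Clo monocytes.

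*Pomp*, the maturation factor of the 20S core, had a Ly6Clo ratio of 0.85, *Psmg1*, an alpha-ring chaperone, 0.97, and *Psmg3*, another, -0.67. *Shfm1*, a small lid subunit whose symbol falls outside the rule, had 0.82. *Ubqln1*, a shuttle factor that carries ubiquitinated proteins to the proteasome, had a ratio of -1.15 in Ly6Clo monocytes. It was also lower in Ly6Chi monocytes (-1.36), as was *Rad23b* (-0.73), and *AI314180*, which encodes the proteasome adaptor ECM29, was higher there (0.65).

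Of the transcriptional regulators, *Nfe2l1* had a ratio of 0.01 in Ly6Clo monocytes and *Nfe2l2* of 0.31. *Ddi2*, the protease that activates NFE2L1, had 7.16 and 2.36 FPKM in Ly6Clo and 12.8 and 2.79 in Ly6Chi monocytes, with ratios of -1.28 and -1.86. *Irf8* had a Ly6Clo ratio of -0.68, and *Nlrc5*, the transactivator of MHC class I genes, of 1.11. *Tap1*, which shares its start region with *Psmb9*, had 68.3 and 32.1 FPKM in Ly6Clo and 67.9 and 51.6 in Ly6Chi monocytes, with ratios of -1.06 and -0.39. *Tap2*, its partner in the peptide transporter, had ratios of -1.70 and -0.80. *Psmb9* and *Tap1* both had ratios below 0 in Ly6Clo monocytes as FPKM, although that of *Psmb9* was 0.09 with GC content and length subtracted, while *Psmb8* next to them had 0.53.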

How the data were processed

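Total RNA of sorted mouse blood monocytes was sequenced as paired ends, 1 library for each of 4 groups. The authors deposited FPKM values per gene for all 6 pairs of libraries. The submitters' processing notes name CASAVA 1.8, TopHat2 2.1.0, Cufflinks 2.2.1 and mm10, and their roles are not given there. The deposited table also holds the authors' fold changes, p-values and q-values for each pair, which were not used. Read counts were not used here, so depth is unknown.

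Log2 ratios of (FPKM + 1) were computed from the values of the pair in question, with duplicate rows of a symbol added up. A gene was called at a fold of at least 1.5 and counted as expressed at 1 FPKM in at least 1 library. There was no test, since a group is 1 library. *Actb* and 3 other symbols had a failed or too deep estimate in some pair. The lowess GC trend (fraction 0.3, 3 iterations) used 6086 genes averaging at least 5 FPKM, with the GC content of the longest GENCODE M21 transcript on GRCm38, known for 94.9% of expressed genes and all 38 members, and genes without one kept their ratio and were left out of the background of the corrected comparisons, a choice made after seeing the data. The GC correction was tested on simulated data with a straight trend and shifts larger than the member ratios, so it does not show how ratios of their size fare. The correction for length was not simulated. Copies were searched as shared 31-base words, for members only. Promoter windows are from RefSeq (GRCm38.p6).

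Genes were named by a rule, namely all catalytic genes, *Psmd4*, *Psmd14*, the highest and lowest member of each class by mean FPKM, the 3 highest and 3 lowest ratios of each comparison, and members or pathway genes past 1.5-fold between genotypes. The members and lists were chosen with earlier results of these data known, and some listed genes are not reported here. Alternatives covered the pseudocount (0.1 and 5), the filter on FPKM, TPM, GC content, length and copies. The software was matplotlib 3.10.9, statsmodels 0.14.6, scipy 1.17.1, pandas 2.3.3 and numpy 2.4.6 under Python 3.11.15.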

Additional observations from a re-analysis of the deposited data

Results flagged for a closer look

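For 4 proteasome genes the same comparison pointed in opposite directions in the settings it was made in, with both log2 ratios of (FPKM + 1) beyond 0.1. None of these differences was tested, since each group is 1 library. The ratio of RBP-J-deficient over control for *Psmd9*, an assembly chaperone of the 19S base, was -0.366 in Ly6Clo and 0.359 in Ly6Chi monocytes. The ratio of Ly6Chi over Ly6Clo for the same gene was -0.299 in control mice but 0.426 in RBP-J-deficient mice, and its FPKM was below 10 in each library. For *Psmd6*, a lid gene, the genotype ratio was 0.37 in Ly6Clo and -0.128 in Ly6Chi monocytes, and with GC content and length subtracted both were below 0, at -0.18 and -0.37. The subset ratio of *Psmb9*, an immunoproteasome gene, was -0.109 in control mice but 0.223 in RBP-J-deficient mice, and with GC content and length subtracted both were below 0, at -0.20 and -0.11. That of *Psmb2*, a non-catalytic beta gene, was 0.111 in control mice but -0.196 in RBP-J-deficient mice. The last value was 0.02 as TPM.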

How the results depend on the processing

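No paired analysis was possible because the groups hold 1 library each and carry no replicate numbers. Of the summary values recomputed under the alternatives, 113 stayed close to the reported value and 51 moved. For members past 1.5-fold as reported in a genotype comparison, 203 of the recomputed ratios stayed past it, 43 dropped below it and 1 turned, *Psma4* at -0.084 in Ly6Clo monocytes with GC content and length subtracted. Over all 38 members in Ly6Clo monocytes, 4, 6 and 8 changed sign as TPM, with GC content and with GC content and length subtracted. *Psmb5*, *Psmb9*, *Psmd2* and *Psmd9* newly passed 1.5-fold as TPM, and *Psmb8* with either correction. The TPM scale without the 4 failed symbols, the correction for length (for the subunit pairs too) and the removal of members with copies were added after seeing the data. Why values moved was not tested, apart from the constructions named.

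In the Ly6Clo genotype comparison the median of 0.58 became 0.28 as TPM, 0.22 as TPM without the failed symbols, 0.42 with GC content subtracted and 0.13 with GC content and length subtracted. The members higher (19 as reported) numbered 8, 6 and 11 as TPM, as TPM without the failed symbols and with GC content and length. The members lower (1 as reported) numbered 5 on both TPM scales, and 0 with a pseudocount of 5 and with both corrections. In Ly6Chi monocytes the median of 0.19 became 0.093 and 0.046 on the TPM scales, and 1 member was higher there and without members with copies, and 0 with GC content and length. In the control subset comparison, a pseudocount of 0.1 and TPM gave 2 higher and 1 lower, and TPM without the failed symbols 1 lower. In that of RBP-J-deficient mice the median was -0.18 on both TPM scales, with 1 higher and 5 lower, -0.26 with GC content and -0.16 with GC content and length, with 7 lower.

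The log2 sum ratio of immunoproteasome to constitutive genes in Ly6Chi monocytes, 0.99 for controls and 0.85 with RBP-J deficiency, was 0.74 and 0.74 as the median of the 3 pairs. With GC content subtracted, the change with genotype was 0.58, -0.91 and 0.81 for the *Psmb8*, *Psmb9* and *Psmb10* pairs in Ly6Clo, and 0.30 and 0.36 for *Psmb8* and *Psmb10* in Ly6Chi monocytes. With length subtracted too, it was 1.17, -0.14 and 0.26 for the *Psmb8*, *Psmb9* and *Psmb10* pairs in Ly6Clo, and 0.53, -0.17 and 0.11 in Ly6Chi monocytes. The SD over assembled 26S genes was 1.15, 1.41, 1.13 and 1.29 in control Ly6Clo, RBP-J-deficient Ly6Clo, control Ly6Chi and RBP-J-deficient Ly6Chi monocytes, and the interquartile range over all 38 members was 1.5 and 1.60 in the Ly6Chi libraries. Depth is unknown, so the counting error of low genes such as *Psmd9* and *Psma8* cannot be given.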
